A study of Mus musculus with 54 samples.

Results

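Heart muscle cells contract through the sarcomere and time each contraction with calcium, and the genes described here encode both machineries. The list holds 37 genes. It was set by gene symbol, with no measured value in the rule, but it was chosen with earlier results of these data known. Of the 37 genes, 35 had a probe set annotated to them alone among 14104 genes of the array. Des, which encodes the intermediate filament protein desmin, and Xirp1, which encodes an actin-binding protein of the cell junctions of heart muscle, had no row in the table and are named without values. For each measured gene, values are those of its own probe set with the highest mean over the 54 arrays, leaving out probe sets that several genes share. The 35 genes fell into 7 of the thin filament and its troponin complex, 7 of myosin and the thick filament, 11 of the Z-disc, the M-band and titin, 7 of calcium handling and 3 natriuretic peptides with their processing enzyme.

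RNA came from CGR8 cells, a mouse embryonic stem cell (ESC) line, in 3 forms. KD cells carried an shRNA plasmid against Mageb16, SCR cells carried a scrambled shRNA plasmid, and WT cells carried neither. All lines were sampled as undifferentiated ESCs (day 0) and after 2, 4, 12, 15 and 22 days of differentiation in hanging-drop embryoid bodies (EBs), with 3 arrays in each of 18 groups. KD and SCR were each one polyclonal population selected with puromycin, so effects of the construct cannot be told apart from other differences between the 3 lines. Nothing in the labels tells whether replicate arrays came from separate cultures, and p-values measure the spread between these arrays, which may be technical. EBs are bulk samples of mixed cells, in which fewer cells of a type and less RNA per cell cannot be told apart.

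In the sarcomere, myosin of the thick filament pulls on actin of the thin filament. Calcium released into the cytoplasm binds troponin, which moves tropomyosin aside and lets the filaments interact. The calcium enters through an L-type channel, is released from the sarcoplasmic reticulum by the ryanodine receptor and is pumped back by SERCA, which phospholamban and sarcolipin hold in check. In EBs made from mouse ESCs, these genes come on as beating areas appear. Several of them are also used by skeletal or smooth muscle.

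The arrays were alike within groups, with correlations of 0.986 to 0.997, array medians of 5.94 to 6.26 log2 and no identical pair. Lower quartiles of the arrays lay at 4.23 to 4.51 log2, and where a group lay under them the size of a fold change is not exact. Mageb16, the gene targeted by the shRNA, had a signal of 13.8 ± 2.68 in KD, 735 ± 117 in SCR and 132 ± 9.69 in WT on day 4 (SD, n = 3 each). On day 22 it was at 141 ± 28.3 in KD, 751 ± 103 in SCR and 657 ± 19.7 in WT. Day-12 SCR EBs had the widest spread among the listed genes, with replicate 1 highest for 31 of 35 and replicate 2 lowest for 31 of 35. In day-22 KD EBs replicate 2 was lowest for 30 of 35. In 17 of the 18 groups replicate 3 lay between the other arrays for 36.4% to 55.2% of probe sets, against 28.3% in day-22 KD EBs. Whether replicate 3 is independent of the others was not tested, and if it is not, the SDs and p-values are too small. Day-4 SCR EBs stood apart from both other lines, as shown by the pluripotency genes below.

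Promoter windows from 250 bases before to 50 after a RefSeq start (build GRCm38.p6) were found for 31 of the 37 genes, in 39 windows. The windows below belong to Myl7 and Tnnt2, which had the largest day-22 differences of KD from SCR and from WT, to Myh6, which rose by day 2, and to Myoz2 and Casq2, which still rose after day 12 in KD EBs. Capitals mark matches to motifs known from muscle and heart promoters. Tnnt2 had 2 windows, and the one with more matches is shown.
Myl7 (chr11:5898733-5899032, minus strand): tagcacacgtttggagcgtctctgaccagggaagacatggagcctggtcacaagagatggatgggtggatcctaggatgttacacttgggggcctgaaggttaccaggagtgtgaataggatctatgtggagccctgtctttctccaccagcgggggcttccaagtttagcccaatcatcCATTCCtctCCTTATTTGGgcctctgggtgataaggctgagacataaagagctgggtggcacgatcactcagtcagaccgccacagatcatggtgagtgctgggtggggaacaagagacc
Tnnt2 (chr1:135836084-135836383, plus strand): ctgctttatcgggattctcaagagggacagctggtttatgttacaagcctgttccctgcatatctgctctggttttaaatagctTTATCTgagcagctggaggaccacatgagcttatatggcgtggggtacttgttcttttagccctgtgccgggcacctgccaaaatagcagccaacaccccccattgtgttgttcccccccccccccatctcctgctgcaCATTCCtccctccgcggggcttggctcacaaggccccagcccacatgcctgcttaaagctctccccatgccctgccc
Myh6 (chr14:54966558-54966857, minus strand): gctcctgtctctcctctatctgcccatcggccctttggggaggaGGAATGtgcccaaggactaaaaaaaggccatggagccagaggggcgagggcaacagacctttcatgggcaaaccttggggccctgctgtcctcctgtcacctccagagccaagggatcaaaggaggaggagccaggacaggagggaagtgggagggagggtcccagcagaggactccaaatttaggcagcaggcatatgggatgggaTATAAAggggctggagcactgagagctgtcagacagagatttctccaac
Myoz2 (chr3:123034938-123035237, minus strand): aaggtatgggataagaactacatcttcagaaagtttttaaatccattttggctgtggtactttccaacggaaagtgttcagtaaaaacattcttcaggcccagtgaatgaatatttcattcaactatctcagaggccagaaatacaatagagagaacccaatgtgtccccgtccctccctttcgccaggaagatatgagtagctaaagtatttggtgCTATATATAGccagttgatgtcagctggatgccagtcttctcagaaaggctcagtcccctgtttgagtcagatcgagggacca
Casq2 (chr3:102086165-102086464, plus strand): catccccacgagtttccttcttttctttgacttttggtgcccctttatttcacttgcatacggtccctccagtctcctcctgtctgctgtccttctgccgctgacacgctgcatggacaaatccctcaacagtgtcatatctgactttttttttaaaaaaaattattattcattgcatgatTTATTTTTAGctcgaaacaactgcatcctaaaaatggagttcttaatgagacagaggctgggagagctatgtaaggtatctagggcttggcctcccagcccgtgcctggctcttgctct
Motifs searched were the MCAT element CATTCC, the GATA site AGATAA, the NKX2-5 site TNAAGTG, the MEF2 site and the CArG box of serum response factor, each on both strands, and the TATA box TATAAA on the forward strand. No matches of different motifs overlapped in the windows shown. The Myl7 window holds CATTCC and a CArG box, the Tnnt2 window holds CATTCC and an AGATAA match on its reverse strand, and the Myh6 window holds a reverse CATTCC and TATAAA. The Myoz2 and Casq2 windows each hold a MEF2 match. CATTCC was present in 28.2% of the listed genes' windows (11 of 39) and in 14.7% of all 32851 windows. The CArG box was present in 15.4% (6 of 39, with 2 overlapping Ldb3 windows that hold the same site) and 1.63%. The MEF2 site was in 10.3% and 3.19%, AGATAA in 17.9% and 11.2%, TATAAA in 12.8% and 8.32%, and TNAAGTG in 7.69% and 11.5%. These matches describe letters in a window and not bound sites.

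Over the 18 groups most of the listed genes traced the same curve. By the group means they were low through day 4, high on day 12 in all lines, and by day 22 low again in SCR and WT EBs but not in KD EBs. Of the 35 genes, 26 were highest on day 12 in SCR and 26 on day 12 in WT, whereas in KD 24 were highest on day 15, 6 on day 12, 4 on day 22 (Actn2, Ankrd1, Casq2 and Sln) and 1 on day 0 (Atp2a2). The correlation of a gene with the mean of the other listed genes over the 18 group means had a median of 0.91. It was above 0.9 for 18 genes and above 0.8 for 25. Smpx (0.99), Tnni3 (0.99) and Csrp3 (0.98) followed the common curve most closely. Actn2 (0.46), Casq2 (0.45) and Atp2a2 (-0.58) followed it least. These are descriptions over 18 points that share arrays of the same lines.

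**Figure D1:**
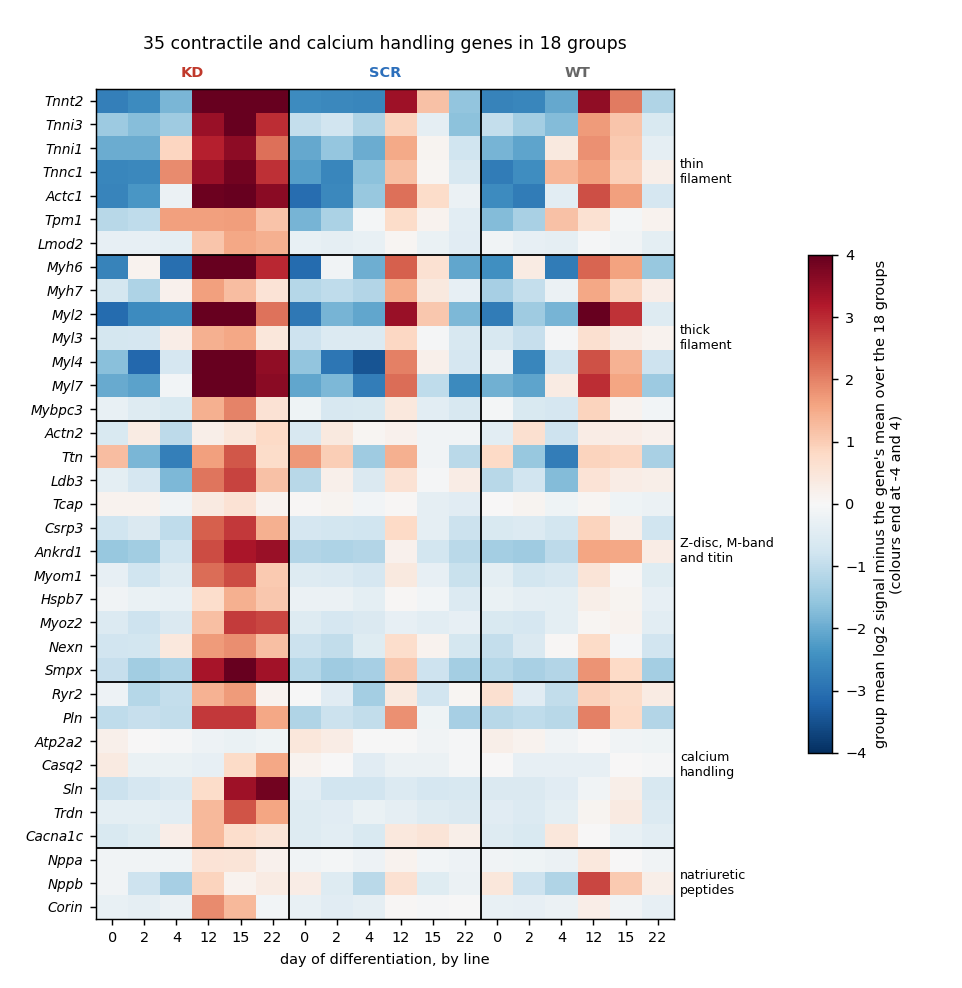
Mean log2 signal of each of the 35 measured genes in the 18 groups, as the difference from that gene's mean over all groups (log2, colours end at −4 and 4), with columns ordered by line (KD, SCR, WT) and day and rows by role. Most rows turn from low to high between day 4 and day 12 in each line, and the high block reaches to day 22 in KD while it ends earlier in SCR and WT.

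On day 0 no listed gene was called between KD and SCR. By limma with Benjamini-Hochberg adjustment, where a call needs a difference of 2-fold or more and an adjusted p under 0.05, 0 of 35 genes were higher and 0 lower in KD than in SCR, where 0.709% of all genes were called higher and 0.503% lower. At an unadjusted p under 0.05 there were 3 higher and 2 lower. Differences of KD minus SCR ran between -0.51 log2 for Tnni3, the troponin I of adult heart, and 0.78 log2 for Tpm1, which encodes alpha-tropomyosin.

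The first day that moved several listed genes was day 2. Myh6, the alpha myosin heavy chain and the main motor of adult mouse heart, had signals of 97.7, 77.7 and 103 in KD on day 2, against 14.8, 12 and 13.1 on day 0. The day-2 signals were 74, 76.1 and 78.8 in SCR, against 8.88, 9.78 and 11.4 on day 0. In WT they were 103, 96.3 and 115 on day 2, against 14.7, 15.2 and 16.2 on day 0. Every day-2 array lay above every day-0 array of its line, and the change was 2.80 log2 (SE 0.241, limma adjusted p = 5.91e-13) in KD, 2.94 log2 (SE 0.241, limma adjusted p = 2e-13) in SCR and 2.77 log2 (SE 0.241, limma adjusted p = 9.35e-13) in WT. Day-0 signals of Myh6 lay under the lower quartile in each line, so the sizes of these changes are not exact. On day 4 Myh6 was at 10.4 ± 1.38 in KD, 21.8 ± 4.53 in SCR and 12.1 ± 2.12 in WT (SD, n = 3 each). Myl4, the essential light chain of embryonic and atrial myosin, fell between day 0 and day 2 in each line, by 1.46 log2 in KD, 1.31 log2 in SCR and 2.38 log2 in WT. Over all listed genes, 1 was higher and 2 lower on day 2 than on day 0 in KD (7.6% and 4.79% of all genes), 4 and 1 in SCR (6.4% and 3.66%) and 3 and 4 in WT (7.43% and 4.28%). These counts are too few to set the list apart from all genes.

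Titin, the giant spring of the sarcomere, was the single listed gene called between KD and SCR on day 2. Ttn had signals of 14.5, 16 and 16.2 in KD and 129, 91.1 and 108 in SCR, with no overlap, a difference of -2.80 log2 (SE 0.271, limma adjusted p = 6.96e-11). WT lay near KD, at 31.8, 14.3 and 15.4. Ttn fell from its day-0 level by 3.04 log2 in KD and 2.32 log2 in WT, while in SCR the change was -0.74 log2 (limma adjusted p = 0.0209) and short of 2-fold. In KD against SCR on day 2, 0 listed genes were called higher and 1 lower, where all genes gave 2.34% and 2.4%, and limma's unadjusted p was under 0.05 for 0 higher and 7 lower. With the mean of a gene's probe sets in place of the brightest, the Ttn call on day 2 was lost.

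On day 4 some thin-filament and myosin genes were higher in KD EBs than in SCR EBs, and a few Z-disc genes were lower. Tnnc1, the calcium-binding troponin C of heart and slow muscle, had signals of 523, 516 and 519 in KD, 36.5, 38.9 and 62.2 in SCR and 244, 471 and 365 in WT. KD exceeded SCR by 3.54 log2 (SE 0.273, limma adjusted p = 2.55e-14). Tnni1, the troponin I of slow and embryonic muscle, had 124, 142 and 147 in KD, 22.3, 14.9 and 21.7 in SCR and 76.1, 131 and 101 in WT. In both genes every SCR array lay below every KD and WT array. Myl4 had signals of 84.5, 68.6 and 71 in KD, 11.9, 10.5 and 10.2 in SCR and 67.7, 66.7 and 74.5 in WT. Myl7, the regulatory light chain of atrial myosin, had 170.1, 124 and 162 in KD, 25.3, 20.7 and 25.3 in SCR and 278, 142 and 211 in WT. Both light chains were lowest in SCR, with no array overlapping those of the other lines. Tpm1, Actc1 (the actin of heart muscle) and Myh7 (the beta myosin heavy chain) were also called higher in KD than in SCR, by 1.71, 1.29 and 1.35 log2. The other direction held Ttn (-1.31 log2), Ldb3 (-1.23 log2), which encodes a Z-disc adaptor protein, Actn2 (-1.13 log2), which encodes the alpha-actinin that crosslinks actin at the Z-disc, and Myh6 (-1.05 log2). Ldb3 signals were 22.9, 14.4 and 14.8 in KD, 32.2, 43.4 and 45.6 in SCR and 17.5, 18.1 and 18.5 in WT. Day-4 KD means of Ttn, Ldb3, Actn2 and Myh6 lay under the lower quartile, so the sizes of these lower values are not exact. With 2-fold as the null in place of an added filter, 5 genes were called higher and 0 lower in KD than in SCR on day 4.

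In KD against SCR on day 4, 7 listed genes were higher and 4 lower (5.67% and 6.15% of all genes), with 4 of 7 thin-filament genes and 3 of 7 myosin genes higher and 3 of 11 Z-disc genes lower. SCR against WT, added after values had been seen, had 2 higher and 7 lower (5.41% and 5.27%), between -3.10 log2 for Myl7 and 1.33 log2 for Ttn. KD against WT, also added, had 0 and 0 called by limma (0.0993% and 0.305% of all genes), and 3 higher and 1 lower at an unadjusted p under 0.05. The mean log2 level of 10 pluripotency markers was 7.47 to 8.19 over the KD arrays, 10.05 to 10.19 over the SCR arrays and 8.22 to 8.74 over the WT arrays on day 4. Its part in the day-4 differences was not tested.

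**Figure D2:**
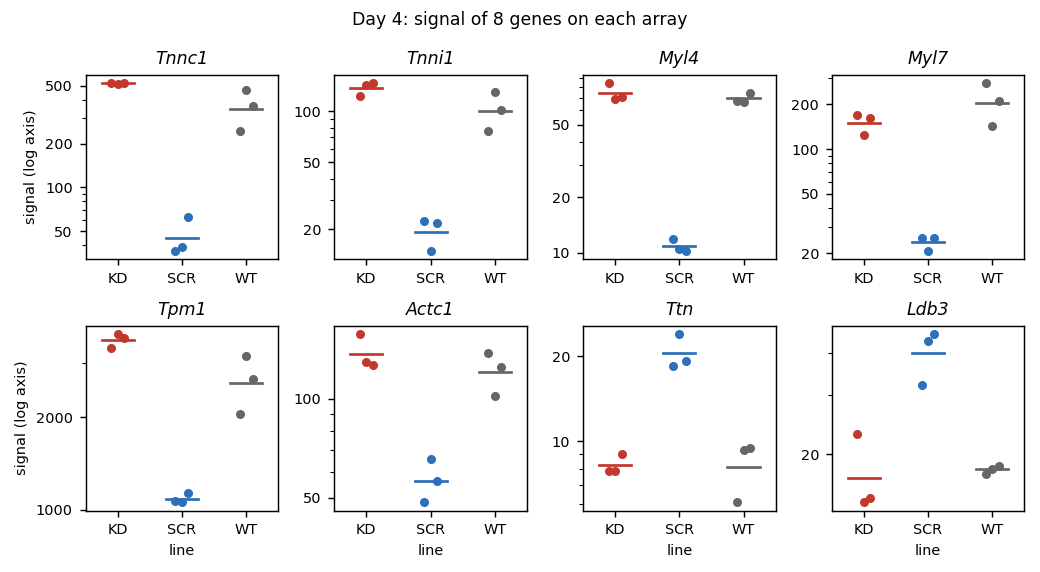
Signal of 8 genes on each day-4 array (points; log axis), with bars at the geometric mean, in KD, SCR and WT EBs. SCR lies below KD and WT for Tnnc1, Tnni1, Myl4, Myl7, Tpm1 and Actc1, and above them for Ttn and Ldb3.

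Between day 4 and day 12 the cardiac set came on in every line. In KD 30 of 35 genes rose and 0 fell (11.6% and 4.3% of all genes), in SCR 23 and 0 (5.96% and 1.96%) and in WT 20 and 0 (9.07% and 3.11%). Limma's unadjusted p was under 0.05 for 0 falling genes in KD, 0 in SCR and 2 in WT. Of the genes, 19 rose in all 3 lines, among them Tnnt2, Myh6, Myl2, Ryr2 and Pln. The share of all genes that rose in all 3 lines was not counted, but cannot exceed the 5.96% that rose in SCR. The largest rise was that of Myh6 in KD at 7.39 log2, Tnnt2, which encodes cardiac troponin T, in SCR at 6.01 log2, and Myl2, the regulatory light chain of ventricular myosin, in WT at 6.13 log2. Day-4 signals of Myh6 in KD and of Tnnt2 in SCR lay under the lower quartile, so the sizes of their rises are not exact. Myl2 signals on day 12 were 3492, 4068 and 3591 in KD, 2419, 771 and 1641 in SCR and 2402, 2628 and 2539 in WT, whereas on day 4 the means were 23.8 ± 2.88 in KD, 31 ± 2.89 in SCR and 36.1 ± 1.17 in WT (SD, n = 3 each). Atp2a2, Casq2, Tcap, Tpm1 and Nppa changed by less than 2-fold between day 4 and day 12 in each line.

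From day 12 to day 22, KD EBs carried more signal than SCR EBs for most sarcomere genes and for some genes of calcium handling. On day 12, 20 of 35 genes were higher in KD and 0 lower (8.66% and 5.46% of all genes), on day 15, 27 and 0 (10.3% and 6.15%), and on day 22, 25 and 0 (11.9% and 4.61%). The median difference of KD minus SCR over the 35 genes was 1.28 log2 on day 12, 2.75 on day 15 and 1.92 on day 22, where the medians over all genes were 0.01, -0.02 and -0.05. By limma's unadjusted p under 0.05, 1 gene was lower on day 12, 0 on day 15 and 0 on day 22. Of the 35 genes, 18 were higher on all 3 days, and 7 were called on none (Actn2, Atp2a2, Cacna1c, Myh7, Nppa, Nppb and Tcap). All genes were not counted in this way, but their share higher on all 3 days cannot exceed the day-12 share of 8.66%. Another 7 (Hspb7, Mybpc3, Myl3, Pln, Ryr2, Tpm1 and Ttn) were higher on day 15 but not called on day 12. The day-12 count depended on SCR arrays. It was 25 without SCR replicate 1 and 17 without SCR replicate 2. Day-22 SCR means of Tnnt2, Tnni3, Lmod2, Csrp3, Ankrd1, Myom1, Hspb7, Myoz2, Smpx, Pln, Sln and Trdn lay under the lower quartile, so the sizes of these day-22 differences are not exact. Over the mean of the 3 days, 27 were higher and 0 lower (10.1% and 4.88%, with 1 lower at an unadjusted p under 0.05), and the median was 1.73 log2.

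All 7 thin-filament and troponin genes were higher in KD on days 15 and 22, and 6 of 7 on day 12. Tnnt2 had signals of 962, 724 and 1226 in KD on day 22, against 16.3, 18.8 and 16.1 in SCR and 31.6, 14.2 and 23.8 in WT. The KD arrays lay far above all others, and the difference from SCR was 5.80 log2 (SE 0.303, limma adjusted p = 7.15e-20), with SCR under the lower quartile of its arrays. On day 15 Tnnt2 had 1771, 2336 and 1885 in KD, 150.1, 89.9 and 105 in SCR and 208, 226 and 211 in WT. Of these days the 3 lines were closest on day 12, when Tnnt2 had 1833, 1795 and 1898 in KD, 1024, 239 and 600.5 in SCR and 545, 592 and 617 in WT, still without overlap between KD and the rest. Tnni3 had 410.1, 263 and 461 in KD, 19.4, 12.9 and 14.3 in SCR and 25.5, 27.9 and 43.4 in WT on day 22, a difference from SCR of 4.59 log2 (SE 0.257, limma adjusted p = 7.3e-19). Actc1 had 2210, 1438 and 2385 in KD, 124, 153 and 137 in SCR and 129.8, 76.6 and 103 in WT. Its KD arrays lay far above all SCR and WT arrays, and KD exceeded SCR by 3.84 log2 (SE 0.253, limma adjusted p = 1.33e-16). Tnnc1 and Tnni1 exceeded SCR by 3.57 and 2.97 log2 on day 22. Tpm1 differed by 1.57 log2, and Lmod2, whose product leiomodin promotes growth of thin filaments, by 1.89 log2 at signals of only 23.8 ± 7.1 in KD and 6.2 ± 0.376 in SCR (SD, n = 3 each).

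**Figure D3:**
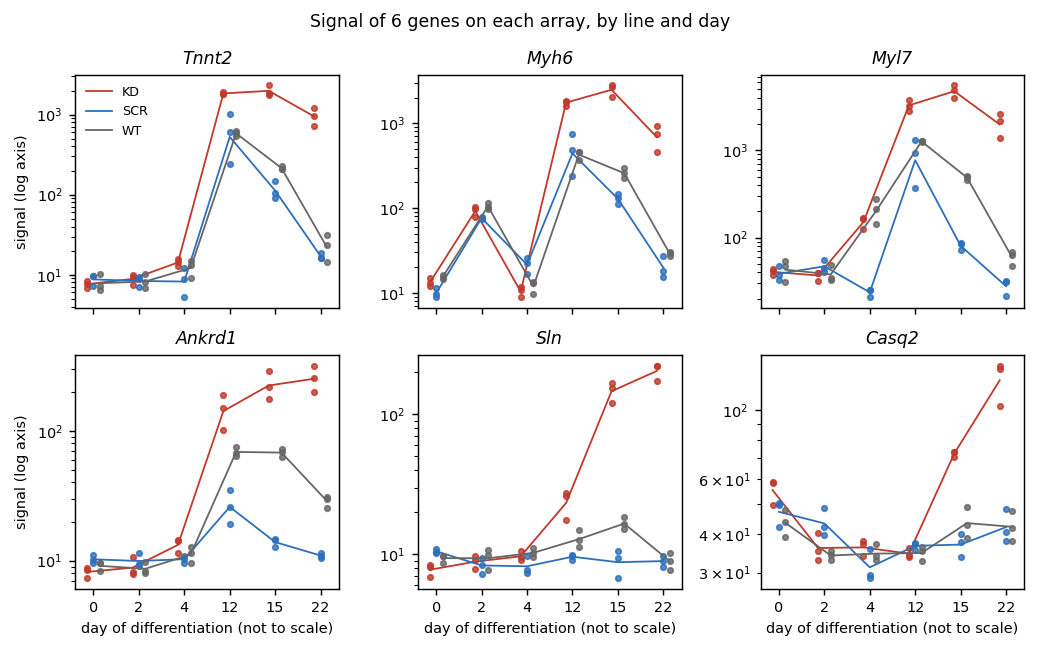
Signal of Tnnt2, Myh6, Myl7, Ankrd1, Sln and Casq2 by day (log axis; days evenly spaced and not to scale) in KD, SCR and WT, with a point for each array and a line through the geometric means. Tnnt2, Myh6 and Myl7 peak by day 15 in every line and stay high in KD, while Ankrd1, Sln and Casq2 are still at their highest on day 22 in KD.

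Of the 7 myosin and thick-filament genes, 6 were higher in KD on days 15 and 22 and 4 on day 12. Myl7 carried the largest difference of the list in KD against SCR. On day 22 it had signals of 2150, 1399 and 2592 in KD, against 32.2, 21.4 and 30.9 in SCR and 68.6, 47.2 and 62.7 in WT, a 71.5-fold difference of KD from SCR (6.16 log2, SE 0.274, limma adjusted p = 3.3e-22). On day 15 it had 3984, 5595 and 4871 in KD, 86.8, 72 and 84.5 in SCR and 495, 458 and 516 in WT, so that SCR was lowest on every array. Its atrial partner Myl4 had 1468, 1243 and 1479 in KD, 66.7, 77.7 and 79.9 in SCR and 85, 52 and 67.7 in WT on day 22 (4.22 log2, SE 0.21, limma adjusted p = 1.34e-20 against SCR). The ventricular light chain Myl2 had 644, 452 and 714 in KD, 45.9, 29.6 and 40 in SCR and 93, 87.4 and 98.4 in WT on day 22 (3.97 log2, SE 0.232, limma adjusted p = 2.85e-18 against SCR). In both light chains no KD array came down to the level of SCR or WT. Myh6 had 744, 455 and 936 in KD, 27.5, 15.6 and 18.4 in SCR and 30.7, 27.1 and 29.9 in WT on day 22 (5.10 log2, SE 0.241, limma adjusted p = 2.65e-21 against SCR). Myh7 was not called, since its difference from SCR was short of 2-fold on each of these days. On day 22 it had 61.8, 64.5 and 62.7 in KD, 31.6, 38.3 and 33.6 in SCR and 46.5, 58.5 and 53.1 in WT (0.87 log2, limma adjusted p = 0.007 against SCR, short of 2-fold). On day 12 its means were 139 ± 37.2 in KD, 139.9 ± 82.6 in SCR and 130.1 ± 30.6 in WT (SD, n = 3 each). Mybpc3, which encodes cardiac myosin-binding protein C, differed from SCR by 1.23 log2 on day 22, and Myl3, the essential light chain of ventricular myosin, by 1.09 log2. The call for Myl3 was lost when day-22 KD replicate 3 (0.88 log2) or replicate 1 (0.99) was left out. It was also lost without day-22 SCR replicate 2 (0.925) and without all replicate 3 arrays (0.96). With 2-fold as the null in place of an added filter, neither Myl3 nor Mybpc3 was called on day 22.

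Of the 11 Z-disc, M-band and titin genes, 7 were higher in KD than in SCR on day 12, 9 on day 15 and 8 on day 22. Ankrd1, a load-responsive ankyrin repeat protein that binds titin, had signals of 254, 198 and 317 in KD on day 22, against 11.5, 10.9 and 10.5 in SCR and 30.1, 25.5 and 31.1 in WT (4.52 log2, SE 0.181, limma adjusted p = 9.46e-24 against SCR). Its KD mean was 147 ± 43.5 on day 12 and 228 ± 56 on day 15 (SD, n = 3 each), so the day-22 level was the highest of the line. Smpx, a small protein of striated muscle, had 290.0, 355 and 280.1 in KD, 9.71, 7.83 and 8.81 in SCR and 24.1, 27.9 and 29.2 in WT on day 15, when KD exceeded SCR by 5.13 log2 (SE 0.231, limma adjusted p = 1.89e-21). SCR lay under the lower quartile on day 15, so the size of this difference is not exact. On day 22 Smpx had 163, 129.8 and 195 in KD, 5.86, 6.45 and 5.86 in SCR and 7.52, 5.58 and 5.5 in WT, with both comparison lines under the lower quartile. Myoz2, a Z-disc protein that binds the phosphatase calcineurin, had 94.3, 65.8 and 105 in KD, 11.3, 10.1 and 11.7 in SCR and 10.9, 9.99 and 10.2 in WT on day 22 (2.98 log2, SE 0.192, limma adjusted p = 7.26e-17 against SCR). In SCR and WT it stayed under the lower quartile on every day sampled. On day 22 Csrp3, the muscle LIM protein, differed from SCR by 2.27 log2, Myom1, the myomesin that links thick filaments at the M-band, by 1.94, Nexn, which encodes the actin-binding protein nexilin, by 1.92, Ttn by 1.79 and Hspb7, a small heat shock protein of heart, by 1.61. Ldb3 was higher than SCR by 2.75 log2 on day 15 and had 0.87 log2 (limma adjusted p = 0.000423) on day 22, short of 2-fold, as was Actn2 (0.92 log2, limma adjusted p = 0.000529). Without SCR replicate 1 of day 22 both passed, at 1.11 log2 for Ldb3 and 1.10 log2 for Actn2. Tcap, the titin cap protein telethonin, differed by 0.94 log2 on day 15 and 0.60 on day 22.

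Calcium handling genes were uneven, with 2 of 7 genes higher in KD than in SCR on day 12, 4 on day 15 and 4 on day 22. Sln, which encodes sarcolipin, had signals of 223, 174 and 221 in KD on day 22, against 8.11, 9.00 and 9.78 in SCR and 10.3, 7.73 and 9.00 in WT (4.52 log2, SE 0.154, limma adjusted p = 5.21e-26 against SCR). It was already at 121, 167 and 155 in KD on day 15, against 10.6, 6.77 and 9.38 in SCR and 15.1, 18.4 and 16.3 in WT. SCR was under the lower quartile throughout. Casq2, the calsequestrin that stores calcium in the sarcoplasmic reticulum of heart, had 139, 103 and 135 in KD, 40.5, 38 and 48.2 in SCR and 47.5, 41.6 and 37.8 in WT on day 22 (1.57 log2, SE 0.109, limma adjusted p = 7.45e-16 against SCR). On day 12 it had 34.1, 33.6 and 36 in KD, 37.3, 37 and 35.5 in SCR and 36.2, 32.7 and 35.3 in WT. KD arrays overlapped those of the other lines on day 12 and lay above all of them on day 22. Pln, which encodes phospholamban, had 96.3, 73.5 and 97 in KD, 11.2, 11.3 and 13.1 in SCR and 12.8, 15 and 12.6 in WT on day 22 (2.90 log2, SE 0.178, limma adjusted p = 1.42e-17 against SCR). Trdn, the triadin that holds calsequestrin to the release channel, had day-22 means of 55.5 ± 15.6 in KD, 12.2 ± 0.381 in SCR and 12.6 ± 1.54 in WT (SD, n = 3 each). Ryr2, the ryanodine receptor of heart, had 60.1, 83.9 and 75.6 in KD, 11.4, 14.4 and 13.1 in SCR and 40.8, 34.5 and 36.2 in WT on day 15 (2.49 log2, SE 0.148, limma adjusted p = 8.59e-18 against SCR). Day-15 SCR signals of Ryr2 lay under the lower quartile, so the size of this difference is not exact. On day 22 the Ryr2 arrays of the lines overlapped, with 22, 23.1 and 28.2 in KD, 19.7, 28.8 and 22.5 in SCR and 27.7, 27.1 and 29.2 in WT (0.06 log2, limma adjusted p = 0.764 against SCR). Cacna1c, the pore subunit of the L-type channel, had differences from SCR of 0.88, 0.19 and 0.27 log2 on days 12, 15 and 22, none of them called.

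Of the natriuretic peptide genes, 1 of 3 was higher in KD than in SCR on days 12 and 15 (Corin) and 0 of 3 on day 22. Nppa, the atrial peptide, stayed under the lower quartile in all 18 groups, with its highest mean at 12.6 ± 2.54 in KD on day 12. Nppb, the B-type peptide, had signals of 38.9, 106 and 78.2 in KD, 74.5, 39.7 and 57.3 in SCR and 352, 154 and 231 in WT on day 12. WT was the high line here. KD lay below WT by 1.76 log2 (SE 0.347, limma adjusted p = 4.41e-05), and SCR by 2.07 log2 (SE 0.347, limma adjusted p = 1.21e-05). Corin, the protease that activates the atrial peptide, had 22.9, 28.6 and 30.3 in KD, 7.31, 7.41 and 7.83 in SCR and 6.77, 9.65 and 9.78 in WT on day 12 (1.85 log2, SE 0.142, limma adjusted p = 2.25e-14 against SCR). Of these means KD alone was above the lower quartile, and by day 22 all 3 lines were under it.

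**Figure D4:**
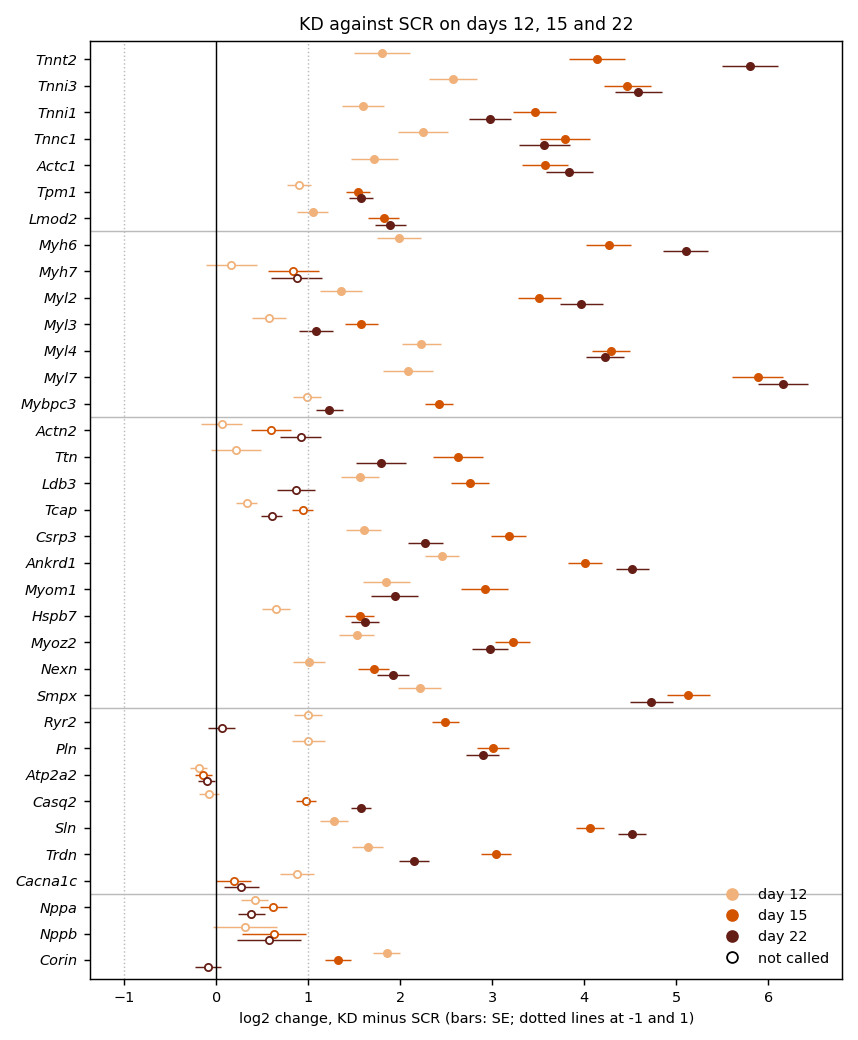
Difference of KD minus SCR (log2, with moderated SE bars) for the 35 genes on days 12, 15 and 22, grouped by role, with filled points where limma's adjusted p was under 0.05 and the difference at least 2-fold. On day 22 Myl7 (6.16) and Tnnt2 (5.80) have the largest values, while Atp2a2, Nppa and Nppb are not called on any of these days.

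Set against WT instead, KD EBs gave counts of a like size. On day 12, 19 of 35 genes were higher and 1 lower in KD than in WT (5.63% and 5.35% of all genes), on day 15, 27 and 0 (12.2% and 8.75%), and on day 22, 23 and 0 (15.8% and 7.16%). At limma's unadjusted p under 0.05, 1 was lower on day 15 and 0 on day 22. Medians of KD minus WT were 1.05, 1.85 and 1.96 log2 on days 12, 15 and 22. The largest difference was Myh6 on day 12 (2.03 log2), Smpx on day 15 (3.51 log2) and Tnnt2 on day 22 (5.43 log2). Most day-12 differences from WT were modest, and with 2-fold as the null in place of an added filter 3 of the 20 were called.

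The 2 lines without the Mageb16 shRNA also differed from each other in listed genes. In SCR against WT 0 genes were higher and 2 lower on day 12 (1.41% and 3% of all genes), 0 and 9 on day 15 (4.39% and 3.37%), and 0 and 4 on day 22 (6.71% and 2.54%). At an unadjusted p under 0.05, limma gave 2 higher and 12 lower on day 12, 1 and 21 on day 15, and 2 and 10 on day 22. Medians of SCR minus WT over the 35 genes were -0.19, -0.57 and -0.21 log2 on these days, where those over all genes were -0.02, -0.05 and -0.04. The genes called on day 12 were Nppb and Ankrd1, and 6 genes were called without SCR replicate 1. On day 15 the 9 called genes were led by Myl7 at -2.60 log2 and Ankrd1 at -2.29 log2. On day 22 the called genes were Ankrd1 (-1.39 log2), Myl2 (-1.29), Myl7 (-1.08) and Tnni3 (-1.03), of which 2 stayed called without SCR replicate 2. The comparisons of KD and of WT with SCR share the SCR arrays.

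Between day 12 and day 22 the lines lost different amounts of signal. In KD 3 of 35 genes were higher and 7 lower on day 22 than on day 12 (9.63% and 1.99% of all genes), in SCR 0 and 20 (5.29% and 1.62%), and in WT 0 and 18 (1.74% and 3.57%). By limma's unadjusted p under 0.05, 6 genes were higher and 20 lower in KD, 0 and 26 in SCR, and 1 and 31 in WT. The median change over the 35 genes was -0.57 log2 in KD, -1.24 in SCR and -1.01 in WT, so most genes lost signal in KD as well. Tnnt2 fell by 0.96 log2 in KD, short of 2-fold, by 4.95 log2 in SCR and by 4.73 log2 in WT. Myl7 fell by 0.72 log2 in KD, also short of 2-fold, by 4.80 in SCR and by 4.43 in WT. Myl2 fell steeply in every line, by 2.65 log2 in KD, 5.26 in SCR and 4.76 in WT. With Myh6, Myh7 and Pln it was one of 4 genes that fell in all 3 lines. The share of all genes that did so was not counted, but cannot exceed the 1.62% that fell in SCR. The genes that rose in KD were Sln by 3.14 log2 (limma adjusted p = 1.99e-20), Casq2 by 1.85 (limma adjusted p = 7.25e-18) and Myoz2 by 1.46 (limma adjusted p = 3.78e-08). In KD the largest fall after Myl2 was Corin, at -2.02 log2. Without day-22 KD replicate 3, 13 genes were lower in KD in place of 7.

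The difference between the lines in this change was tested as an interaction. The change in KD minus that in SCR was higher for 16 of 35 genes and lower for 1 (7.06% and 2.33% of all genes). Myl7 (4.08 log2, limma adjusted p = 4.06e-11) and Tnnt2 (4.00 log2, limma adjusted p = 9.65e-10) led it, and the lower gene was Corin (-1.94 log2). KD minus WT gave 17 higher and 1 lower (10.9% and 1.53%), with Tnnt2 at 3.77 log2 and Sln at 3.66 log2. SCR minus WT gave 1 higher and 0 lower (6.88% and 0.978%, with 2 lower at limma's unadjusted p under 0.05). The gene was Nppb (1.61 log2, SE 0.49, limma adjusted p = 0.0123), and it was lost in 3 of the tests that left arrays out.

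**Figure D5:**
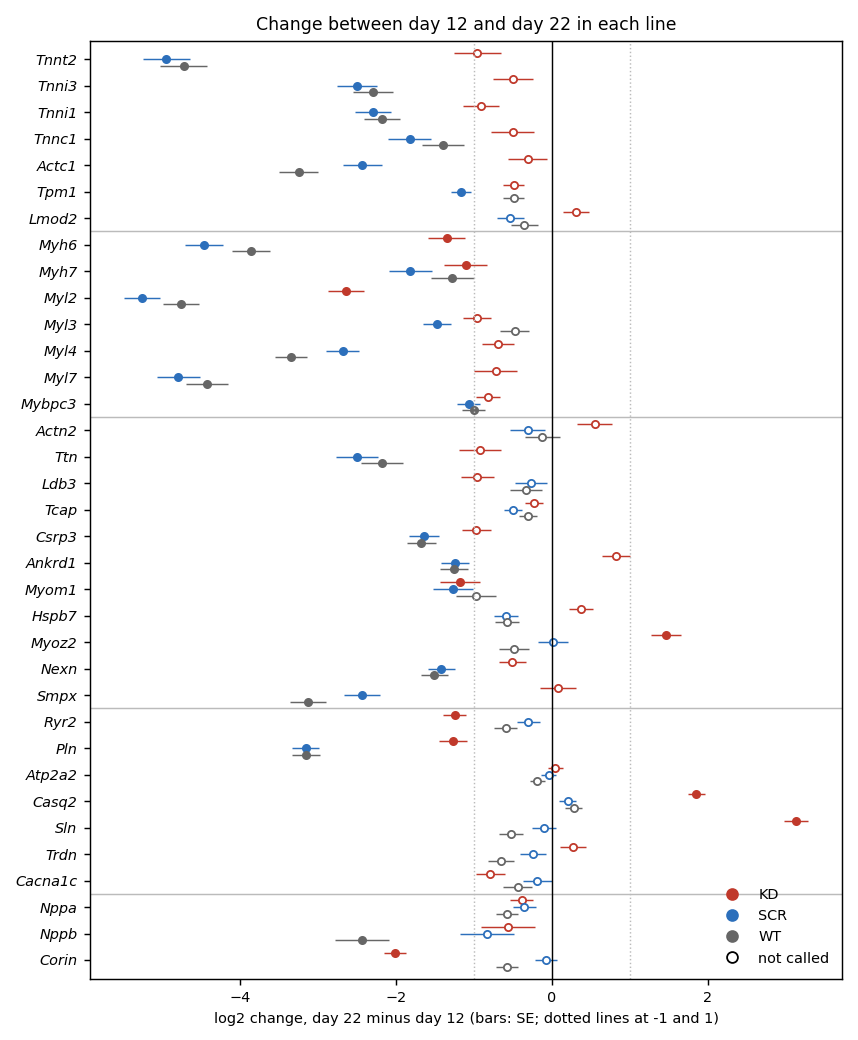
Change between day 12 and day 22 (log2, day 22 minus day 12, with moderated SE bars) for the 35 genes in KD, SCR and WT. SCR and WT points lie close together far to the left for Tnnt2, Myh6, Myl2, Myl7 and Pln, KD points lie nearer 0, and Sln, Casq2 and Myoz2 lie right of 0 in KD.

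The choice of probe set mattered for some genes. In all, 11 of the listed genes had 27 further probe sets of their own, of which 18 were called higher and 0 lower in KD than in SCR over the mean of days 12 to 22. Atp2a2, the calcium pump SERCA2, was the gene where it decided the reading. Its brightest probe set had means of 1736 ± 103 in KD, 1911 ± 13.2 in SCR and 1883 ± 130.4 in WT on day 15 (SD, n = 3 each), with -0.14 log2 between KD and SCR over the 3 days. Another Atp2a2 probe set had mean signals of 1783, 1996 and 1020 in KD on days 12, 15 and 22, against 684, 458 and 513 in SCR. It and a further one were higher in KD over the 3 days by 1.50 and 1.52 log2 (limma adjusted p = 4.21e-20 and 4.33e-20), while the other 3 lay near 0. Which transcripts each probe set reads was not tested. Tpm1 ranged from -0.22 to 1.34 log2 over its 4 probe sets and Ttn from -0.12 to 1.55 over its 6. A further 2 probe sets are shared by Myh6 and Myh7, whose sequences are alike, and were not used.

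Other genes of cardiomyocytes also differed between KD and SCR. Shares of all genes called higher and lower in KD than in SCR were 8.66% and 5.46% on day 12 and 11.9% and 4.61% on day 22. Against WT on day 22 they were 15.8% and 7.16%. Of 40 other contractile, junction and excitation genes, 13 were higher in KD than in SCR on day 12 and 12 on day 22, with 0 and 0 lower by limma (6 and 7 at an unadjusted p under 0.05). Against WT on day 22, 11 were higher in KD and 5 lower (S100a1, Rbm20, Trim63, Trim54 and Alpk3). Over the mean of the 3 days the largest differences from SCR were Myl9 (3.15 log2), Myom2 (2.08), Myocd (1.95) and Fhl2 (1.92). Of 21 cardiac transcription factors, 10 were higher on day 12 and 5 on day 22, with 0 and 0 lower by limma (3 and 5 at an unadjusted p under 0.05). Against WT on day 22, 7 were higher in KD and 2 lower (Gata4 and Tbx3), a lower count too small to set these factors apart from all genes. The factors with the largest differences from SCR over the 3 days were Tbx20 (2.88 log2), Gata6 (2.63), Hand2 (2.61) and Mef2c (2.21), all regulators of heart formation. Of 15 muscle energy genes, 4 were higher and 3 lower in KD than in SCR on day 22, and 4 higher and 5 lower in KD than in WT. Ppargc1a (1.98 log2), Cox8b (1.85) and Pgam2 (1.74) were higher over the 3 days, and Fabp3, a fatty acid carrier of heart, was lower (-2.23).

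Markers of other cell types also differed between KD and SCR EBs on the same days, and levels below are means over a list's markers on an array. The shares of all genes given above for the cardiomyocyte genes hold for these comparisons too. Of 12 endothelial markers 7 were higher in KD than in SCR on day 12 and 7 on day 22, with Cdh5 at 4.03 log2, Emcn at 3.54, Icam2 at 3.39 and Sox18 at 2.59 over the 3 days. Their level on day 22 was 6.74 to 7.04 log2 in KD, 4.83 to 5.10 in SCR and 5.38 to 5.54 in WT. Of 12 fibroblast and matrix markers 11 were higher on day 12 and 12 on day 22, led by Tcf21 (5.13 log2), Col1a1 (3.98), Dcn (3.71) and Col1a2 (3.39). Their level on day 22 was 10.37 to 10.63 log2 in KD, 7.52 to 7.63 in SCR and 7.30 to 7.48 in WT. Of 9 hepatic and yolk-sac markers 8 were higher on day 12 and 9 on day 22, at day-22 levels of 10.99 to 11.24 log2 in KD, 5.37 to 6.08 in SCR and 7.95 to 9.28 in WT. Of 11 smooth muscle markers 5 were higher on day 12 and 9 on day 22, with Mylk (3.58 log2), Actg2 (3.31), Acta2 (2.23) and Myh11 (2.12) largest. Smooth muscle levels on day 22 were 7.96 to 8.45 log2 in KD, 5.62 to 5.72 in SCR and 5.68 to 5.82 in WT. All 4 of these lists thus lay higher in KD on day 22, with no overlap between the arrays of KD and of the other lines. Pluripotency markers went the other way, with 9 of 10 lower in KD than in SCR on day 12 and 8 on day 22. Their level on day 12 was 7.08 to 7.69 log2 in KD, 9.96 to 10.30 in SCR and 10.30 to 10.60 in WT, and on day 22 it was 9.09 to 9.10 in KD and 10.23 to 10.73 in SCR. Of 9 neural markers 5 were lower in KD than in SCR on day 12 and 1 on day 22, but 8 were higher in KD than in WT on day 22. Neural levels on day 22 were 7.78 to 8.02 log2 in KD, 7.95 to 8.79 in SCR and 5.28 to 5.57 in WT. Of 7 reference genes 0 were called by limma on either day, and 2 were higher and 3 lower on day 12 at an unadjusted p under 0.05. No value was 0, and over all lists Cacna1d, Gata5 and Tie1 were under the lower quartile in every group. The part of these cell types in the differences of the listed genes was not tested.

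Skeletal muscle also uses Sln, Casq2 and several Z-disc genes, among them genes that rose late in KD. Of 16 skeletal muscle markers, 2 were higher and 1 lower in KD than in SCR on day 12, and 10 higher and 0 lower on day 22 (2 lower at limma's unadjusted p under 0.05). Shares of all genes were 8.66% and 5.46% on day 12, 10.3% and 6.15% on day 15, and 11.9% and 4.61% on day 22. The list's mean log2 level was 6.32 to 6.58 over KD arrays, 4.91 to 5.01 over SCR arrays and 4.75 to 5.10 over WT arrays on day 22. On day 15 it was 4.70 to 4.75 in KD, 4.76 to 4.89 in SCR and 4.80 to 4.89 in WT. On that day 3 skeletal markers were called higher (Tnnt1, Myl1 and Casq1) and 3 lower (Pax3, Mylpf and Actn3) in KD than in SCR. Of the genes that rose late in KD, Sln and Myoz2 were 4.06 and 3.22 log2 above SCR on day 15, and Casq2 was 0.97 log2 above it, short of 2-fold. Myog, the myogenic factor of skeletal muscle, was at 116 ± 20 in KD, 16.9 ± 2.67 in SCR and 14.9 ± 3.93 in WT on day 22 (SD, n = 3 each). The largest differences over the 3 days were Myl1 (2.27 log2), Casq1 (1.31) and Tnni2 (1.03), with Mylpf lower (-1.56). By day, Mylpf was called lower in KD than in SCR on days 12 and 15 but higher on day 22. The part of skeletal muscle in the day-22 levels of the listed genes was not tested.

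The genes outside the list whose profile over the 18 group means was most like the list's mean profile were Rab7b (r = 0.981), Synpo, Clec1a, Cd200r4, Cd36, Icam2, Cd93, Tmem204, Mrvi1 and Gimap6, the last at 0.968. Over the mean of days 12 to 22 they exceeded SCR in KD by between 0.83 log2 for Clec1a and 4.09 log2 for Cd93. Icam2 is also in the endothelial list. Icam2 and Cd93 are known as surface proteins of endothelial cells, and Synpo as an actin-associated protein.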

How the data were processed

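Total RNA of ESCs and EBs was hybridised to 54 Affymetrix mouse genome arrays, 3 for each of 18 groups, with line, day and replicate number taken from the sample titles. The deposited table holds log2 signals of 30939 probe sets, made by the authors with RMA, which corrects background, quantile-normalizes arrays and summarises probes. The submitters' notes name Affymetrix Expression Console and Partek 6.6, whereas the methods name R packages. No raw file was used here, no further normalization was applied, and signals given in the text are the log2 values turned back to a linear scale. Levels of different probe sets were not compared. The platform annotation gives 25596 probe sets 1 symbol, 685 several and 4658 none.

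In R 4.3.3, limma 3.58.1 fitted 18 group means on all 54 arrays with moderated variances, and p-values were adjusted by Benjamini-Hochberg over all probe sets. Calls needed a change of 2-fold or more and an adjusted p under 0.05. The steps were tested on simulated data. Of 27 comparisons, 22 were planned and 5 (KD and SCR against WT on day 4, day 2 against day 0 in each line) were added after values had been seen. All 37 listed genes were to be named, each by its brightest own probe set, with the 4 most changed genes of each other list and the 10 most similar genes. Members and lists were chosen with earlier results of these data known. Alternatives changed the normalization, the probe sets, the variance model, the form of the 2-fold rule and the arrays. The number of arrays limits the precision. Promoters came from RefSeq and motifs were searched in Python 3.11.15.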

Additional observations from a re-analysis of the deposited data

Results flagged for a closer look

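The change between day 12 and day 22 differed between lines in 36 tests of single genes, each by an interaction term in limma at an adjusted p under 0.05 and at least 2-fold. Of 35 genes tested for each pair of lines, KD minus SCR was higher for 16 and lower for 1 (7.06% and 2.33% of all genes). KD minus WT was higher for 17 and lower for 1 (10.9% and 1.53%), and SCR minus WT for 1 and 0 (6.88% and 0.978%). In every value below the change in the line named first has that in the line named second taken away.

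For KD minus SCR, the thin-filament genes were Tnnt2 (4.00 log2), Actc1 (2.12), Tnni3 (2.01), Tnni1 (1.38) and Tnnc1 (1.32). Myosin genes were Myl7 (4.08), Myh6 (3.11), Myl2 (2.61) and Myl4 (1.99). Of the Z-disc and titin genes, Smpx had 2.52, Ankrd1 2.07, Ttn 1.58 and Myoz2 1.45. The calcium handling genes were Sln (3.24), Pln (1.90) and Casq2 (1.65). Corin, at -1.94, had the opposite sign.

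For KD minus WT, the thin-filament genes were Tnnt2 (3.77 log2), Actc1 (2.94), Tnni3 (1.80) and Tnni1 (1.27). Myosin genes were Myl7 (3.71), Myl4 (2.66), Myh6 (2.51) and Myl2 (2.12). Smpx had 3.21, Ankrd1 2.08, Myoz2 1.94, Ttn 1.26 and Nexn 1.01. Sln had 3.66, Pln 1.89, Casq2 1.57 and Nppb 1.87, and Corin had -1.44. The KD arrays are shared by both sets of values.

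For SCR minus WT, Nppb alone was called, at 1.61 log2. Day-12 WT was the high group for this gene, with 57.2 ± 17.4 in SCR and 246 ± 99.7 in WT (SD, n = 3 each).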

How the results depend on the processing

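Trend and robust variances, fits of the compared arrays alone, and counting only genes above the lower quartile (chosen after seeing the data) left all 27 counts within 1.5 times their values. With the replicate number as a block, all 27 counts were equal to those given, 25 genes in KD against SCR on day 22 among them. Whether equal numbers in different lines mark paired arrays is not settled. Of 54 pairs with the same number, 32 correlated above 0.1 (-0.40 to 0.50), and 30 of the 36 KD and SCR arrays correlated best with their own number.

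Testing only the brightest 60% of probe sets removed 18 of the 35 genes by construction. Counts were then 10, 14, 14 and 14 for KD against SCR on days 12, 15 and 22 and their mean, 10, 14 and 12 for KD against WT, 0 and 5 for SCR against WT on days 12 and 15, 14, 14 and 12 for day 12 against day 4 in KD, SCR and WT, 4 for day 22 against day 12 in KD, 11, 10 and 0 for the interactions KD minus SCR, KD minus WT and SCR minus WT, and 4 for day 2 against day 0 in WT. With 2-fold as the null, counts were 5 and 11 for KD against SCR on days 4 and 12, 3 for KD against WT on day 12, 4, 0, 4 and 0 for SCR against WT on days 4, 12, 15 and 22, 14 for day 12 against day 4 in SCR, 4 and 12 for day 22 against day 12 in KD and SCR, 11 and 0 for the interactions KD minus SCR and SCR minus WT, and 1 and 3 for day 2 against day 0 in SCR and WT. The SCR minus WT interaction was 2 with quantile normalization, with median centring, with array weights and with the mean of probe sets, and 3 with the most variable probe set. The mean of probe sets gave 0 for KD against SCR on day 2, and array weights gave 5 for day 2 against day 0 in KD. The causes of these last shifts were not tested.

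Leaving arrays out gave 1 to 2 for KD against SCR on day 2, 2 to 6 for SCR against WT on day 12, 2 to 4 on day 22, 8 to 16 for day 22 against day 12 in KD (16 without day-22 KD replicate 3), 0 to 4 for the SCR minus WT interaction, 3 to 6 for day 2 against day 0 in SCR and 3 to 6 in KD. KD against SCR kept 24 to 27 on day 22.

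Of 5159 checks of single genes, 5008 kept direction and call, 79 lost the call, 69 gained it and 3 reversed. The reversed gene was Atp2a2, which with its most variable probe set was 1.39, 2.12 and 1.50 log2 higher in KD than in SCR on day 12, day 15 and their mean with day 22, in place of -0.19, -0.14 and -0.14. Over the 3 days Corin was lost with quantile normalization, with median centring (0.96 log2 each) and with 2-fold as the null. It was also lost without all replicate 1 arrays (0.96), day-22 SCR replicate 1 (0.98), day-12 KD replicate 3 (1.00) or day-15 KD replicate 3 (0.99). Myl3 (1.08) and Ryr2 (1.18) were lost with 2-fold as the null, and Tpm1 (0.81) and Ttn (0.74) with the mean of probe sets. Median centring moved the median of all probe sets for KD against WT on day 22 to -0.24 log2, against -0.09 as deposited. SCR signals under the lower quartile on day 22 limit how exactly folds of Tnnt2, Tnni3, Lmod2, Csrp3, Ankrd1, Myom1, Hspb7, Myoz2, Smpx, Pln, Sln and Trdn against SCR can be given.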
